A study of Mus musculus with 4 samples.

Results

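Costimulatory molecules are the surface proteins with which a dendritic cell (DC) and a T cell signal to each other beside the antigen receptor. The genes described here are Cd40, Cd80, Cd86, Cd70, Tnfsf9, Tnfsf4, Tnfrsf4, Tnfrsf9, Icosl and Slamf1, which are 10 of the 55385 genes of the count matrix, taken by their symbols. They were followed in splenic type 1 conventional DCs (cDC1) from cells without Ccr7 RNA to cells rich in Ccr7 and Fscn1 RNA. Ccr7 encodes the chemokine receptor of migrating DCs, and Fscn1 encodes the actin-bundling protein fascin; both mark mature DCs.

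The study profiled RNA together with barcoded surface antibodies cell by cell (CITE-seq) in spleens of wild-type C57BL6 mice at steady state, with no treatment and no second genotype. DCs of 2 mice were enriched, stained, and sorted as cDC1 (XCR1-positive, CD172a-negative), a smaller number of type 2 conventional DCs (cDC2; the reverse) and random live cells. There are 2 libraries, numbered here by the suffix of their cell barcodes. Nothing in the labels ties a library to 1 animal. The shift that all cell classes of a library share was fitted and taken out. The p-values therefore reflect only the spread left between the 2 libraries, pooled over all cell classes of the fit, lymphocytes included. Part of that spread may be technical, and it cannot be read as variation between animals.

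A cDC1 was a cell with at least 3 UMIs (counted molecules) of the XCR1 antibody and at most 2 of the CD172a antibody. The Ccr7-0 stage had no Ccr7 UMI and held 4871 cells in library 1 and 7392 in library 2. The intermediate stage had at least 2 Ccr7 UMIs and at most 1 Fscn1 UMI, with 179 and 236 cells. The late stage had at least 5 Ccr7 and at least 2 Fscn1 UMIs, with 103 and 125 cells. The same RNA thresholds staged cDC2 (CD172a at least 5, XCR1 at most 2), with 1155 and 1209, 304 and 265, and 60 and 56 cells. Per cell, cDC2 were shallower, with median RNA UMIs of 3904 and 3826 at Ccr7-0 and 3606 and 3509 late. In cDC1 these medians were 9202 and 8120, and 6514 and 6199. The same UMI threshold therefore stood for a higher relative level in cDC2. T, B and natural killer (NK) cells from the same libraries, gated on their own marker RNAs, numbered 836 and 715, 154 and 168, and 269 and 373. The sort set the numbers of cells per class, so these numbers are no frequencies in the spleen.

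As background, CD80 and CD86 are the B7 proteins that bind CD28 and CTLA-4 on T cells, and ICOSL is the B7 relative that binds ICOS. CD40 is a receptor of the TNF receptor family on DCs and B cells that is triggered by CD40L on helper T cells, and its signalling through TRAF proteins and non-canonical NF-kB is a classical inducer of DC maturation. CD70, 4-1BBL (Tnfsf9) and OX40L (Tnfsf4) are TNF-family ligands for CD27, 4-1BB (Tnfrsf9) and OX40 (Tnfrsf4), receptors best known on T and NK cells. SLAMF1 (CD150) is a receptor that binds itself on a neighbouring cell. DCs can mature in the steady state without infection, and then also carry many of these molecules.

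Kept cells had a median of 6942 RNA UMIs in library 1 and 6885 in library 2, and the summed counts of a class ranged from 223823 to 62946513 RNA UMIs. Summed cDC1 marker RNA was 5029 and 5442 CPM (UMIs per 1000000 UMIs of the class) in Ccr7-0 cDC1 and 1600 and 2449 CPM in the late stage, against 655 and 701 CPM in Ccr7-0 cDC2, and no marker of the 8 was at 0 in cDC1. Late cDC2 had 530 and 791 CPM and NK cells 1820 and 1708 CPM, so this sum did not separate late cDC1 from NK cells. Of all kept cells with late counts of Ccr7 and Fscn1, 433 and 499, the cDC1 gate took 103 and 125, and 270 and 318 lay in neither DC gate. Summed RNA of 7 T cell markers was 14.5 and 15.8 CPM in Ccr7-0, 105 and 249.6 CPM in intermediate and 52.9 and 14.0 CPM in late cDC1, with none at 0, against 5161 and 5138 CPM in T cells. Lymphocyte marker UMIs were found in 30.2% and 33.5% of intermediate cDC1, 19.4% and 18.4% of late and 12.6% and 9.28% of Ccr7-0 cDC1. Results without those cells are given where they differ. Summed RNA of 8 red pulp macrophage markers was 38.7 and 45.3, 108 and 136, and 214 and 198 CPM over the 3 stages, with 2 of the 8 at 0 in the late stage, and that of 5 erythroid markers was 276 and 359, 934 and 433, and 45.9 and 34.9 CPM, with 1 at 0 in the late stage. Their part in the results below was not tested. Only 41 barcode sequences were shared by the kept cells of both libraries.

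Across the whole path, 8 of the 9 testable members rose in cDC1 and 1, Cd86, did not pass the test, while 23.8% of the 10115 genes tested rose and 25.4% fell. Tnfsf4 had too few UMIs to be tested. The members' median change was 3.86 on the log2 scale, against -0.14 for all genes. Members, like the gene lists further below, were chosen with earlier results of these data known, so such counts describe and do not test. Of the 8, Slamf1 rested on 2 and 4 late UMIs. The rises did not come together. In CPM, Cd80 and Cd86 were highest in the intermediate stage. Of the whole CPM rise (mean of the libraries), Tnfsf9 had reached 65.1% there and Cd40 48.0%, against 24.1% for Icosl, 18.8% for Tnfrsf9, 14.1% for Cd70 and 5.37% for Tnfrsf4. On the log2 scale the first step was the larger for all of these, though for Icosl, Tnfrsf9 and Tnfrsf4 the difference between the steps did not pass the test. Gene positions below are those of GRCm38.p6.

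**Figure D1:**
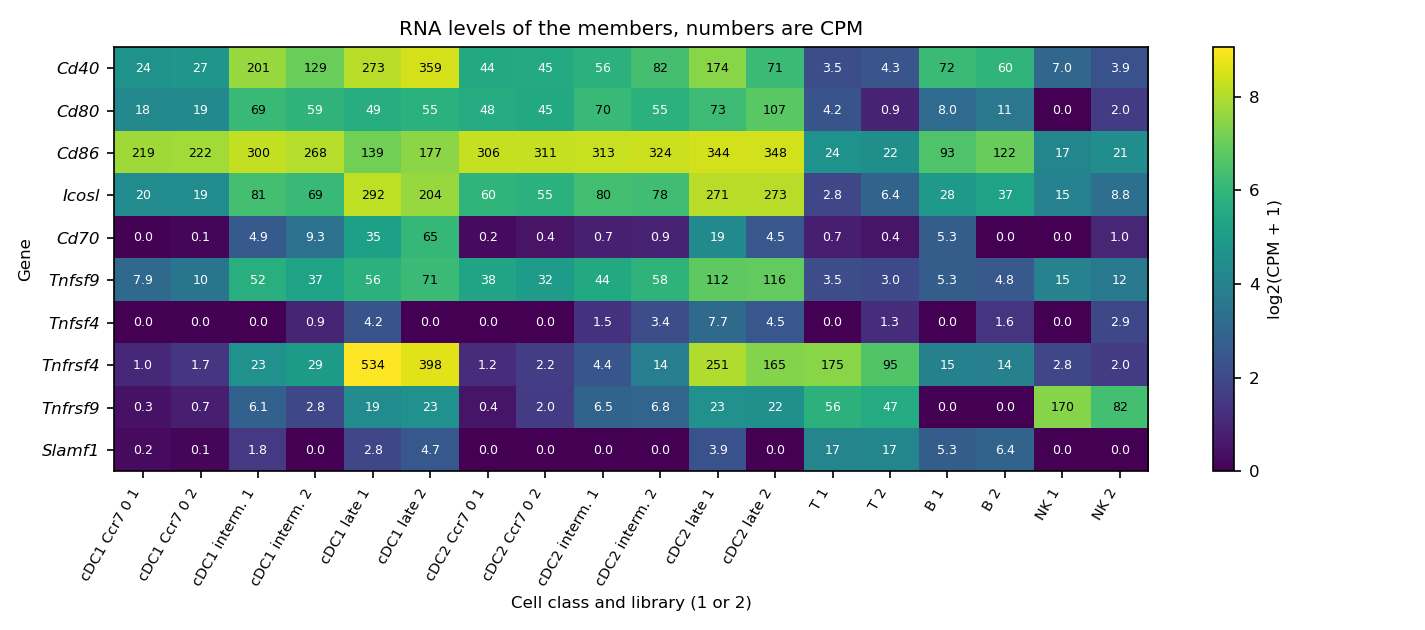
RNA levels of the 10 genes in each cell class and library. Rows are genes, columns are cell classes by library (1 or 2), colour is log2(CPM + 1), and the printed number is the CPM; Tnfrsf4 stands at 534 and 398 CPM in late cDC1 and at 1.0 and 1.7 CPM in Ccr7-0 cDC1.

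Among the B7 genes, Cd80 (chr16:38457430-38495958) rose in the first step only, with the stages as set in the main fit. With a narrower intermediate stage, given below, Cd80 also rose in the second step (0.72, log2). Its level was 18.1 and 19.3 CPM (library 1, library 2) in Ccr7-0 cDC1, 69.1 and 58.8 CPM in intermediate and 48.7 and 54.7 CPM in late cDC1. Both libraries were highest in the intermediate stage, and no stage overlapped with another. The first step was 1.84 ± 0.16 (log2, SE; adjusted p = 9.2e-10), and the second step of -0.16 ± 0.23 did not pass (adjusted p = 0.64). Measured on CPM, the intermediate mean stood at 137% of the whole rise (167% and 111% in the libraries).

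Cd86 (chr16:36568956-36666158), on the same chromosome, rose and then fell. It was already at 219 and 222 CPM in Ccr7-0 cDC1, reached 300.3 and 268 CPM in the intermediate stage and stood at 139 and 177 CPM in the late stage. The 3 stages did not overlap, and in both libraries the late level was below the starting level. The first step was 0.44 ± 0.09 on the log2 scale (adjusted p = 0.00089) and the second -0.71 ± 0.12 (adjusted p = 6.4e-05). The net change of -0.26 ± 0.12 missed the threshold (adjusted p = 0.065), and it passed when scaled to total UMIs (-0.47, adjusted p = 0.0017), with no filter on low counts (-0.39, adjusted p = 0.014) and in a wider gate (-0.39, adjusted p = 0.0017). It was the 1 member that fell in the second step.

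Icosl (chr10:78069368-78079525) rose in both steps. Its level was 19.8 and 19.5 CPM, then 80.7 and 68.6 CPM, then 292 and 204 CPM. The libraries of the stages did not overlap. The log2 steps were 2.0 ± 0.15 (adjusted p = 8.1e-11) and 1.86 ± 0.16 (adjusted p = 1.5e-09), and the intermediate stage held 24.1% of the whole rise in CPM.

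For 3 members with different courses, Cd80, Icosl and Tnfrsf4, the 250 bases upstream of the start listed in the RefSeq promoter table are shown, since such bases are where general and inducible factors often bind. For Cd80 and Tnfrsf4 the listed start lies inside the gene span given here, so these windows stand before an internal start and not before the first base of the gene; the Icosl window ends at the base before the gene. All are on the plus strand of GRCm38.p6, 5′ to 3′, with the last base next to the start. The capitals mark a match to the AP-1-type motif TGANTCA.
Cd80, chr16:38458683-38458932: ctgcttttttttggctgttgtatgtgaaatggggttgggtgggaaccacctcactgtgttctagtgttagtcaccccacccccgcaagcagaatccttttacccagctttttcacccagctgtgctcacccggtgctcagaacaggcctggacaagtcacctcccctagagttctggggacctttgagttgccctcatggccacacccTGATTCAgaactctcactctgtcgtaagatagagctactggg
Icosl, chr10:78069118-78069367: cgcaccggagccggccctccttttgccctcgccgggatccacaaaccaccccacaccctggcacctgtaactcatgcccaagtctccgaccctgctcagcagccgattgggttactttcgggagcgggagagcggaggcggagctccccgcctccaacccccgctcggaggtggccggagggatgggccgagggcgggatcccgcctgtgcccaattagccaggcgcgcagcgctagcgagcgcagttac
Tnfrsf4, chr4:156013445-156013694: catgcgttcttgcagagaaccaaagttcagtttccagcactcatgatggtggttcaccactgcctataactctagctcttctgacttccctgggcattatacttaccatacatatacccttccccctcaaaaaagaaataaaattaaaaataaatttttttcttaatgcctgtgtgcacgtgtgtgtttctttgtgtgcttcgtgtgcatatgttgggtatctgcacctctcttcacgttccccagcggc
Matches were searched on both strands for an NF-kB-type motif (GGGA and TTCC with 2 bases between), the AP-1-type motif TGANTCA and an ETS-IRF-type motif (GGAA and GAAA with 2 bases between). The Cd80 window held 1 AP-1-type match, whose first base is 42 bases before the start, and 6.75% of 32851 mouse promoter windows of this length hold such a match. This pattern lets any base stand in the centre, here a T, and binding was not tested. No match of the 3 kinds was found in the windows of Icosl, Tnfrsf4 and Slamf1. The NF-kB-type letters stand in 1.21% and the ETS-IRF-type letters in 2.30% of all windows. Of 2 listed starts of Tnfrsf9, the second held an AP-1-type match 15 bases before the start. Its window also holds ggggatttcc, which differs from the NF-kB-type letters only by a G in place of the A. Such looser stretches were not counted in any window. The table listed 5 of the 10 members, and Cd40, Cd86, Cd70, Tnfsf9 and Tnfsf4 were not among them.

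Cd40 (chr2:165055614-165071654), the receptor, rose strongly in the first step. Its level was 24.3 and 26.9 CPM in Ccr7-0, 201 and 129 CPM in intermediate and 273 and 359 CPM in late cDC1. The stages did not overlap, but the libraries disagreed on how much of the rise came first: 71.0% of the whole CPM rise in library 1 and 30.8% in library 2. The first step was 2.75 ± 0.17 (adjusted p = 2.1e-12) and the second 1.09 ± 0.19 (adjusted p = 5.7e-05) on the log2 scale. The second step was 0.59 in library 1 alone and 1.59 in library 2 alone. With stages set from cells thinned to 3000 UMIs, the second step was 0.23 (adjusted p = 0.31).

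The TNF-family ligands differed. Tnfsf9 (chr17:57105287-57107758), encoding 4-1BBL, was at 7.88 and 10.4 CPM in Ccr7-0, 52.0 and 36.9 CPM in intermediate and 55.7 and 71.0 CPM in late cDC1. Library 1 was thus nearly level over the second step while library 2 went on rising. The first step was 2.33 ± 0.19 (adjusted p = 3.8e-10), and the second, 0.68 ± 0.24, passed narrowly (adjusted p = 0.029). It was 0.24 in library 1 alone and 1.06 in library 2 alone. Without the cells with lymphocyte markers the second step was 0.35 (adjusted p = 0.34), and 3 further settings also lost it.

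Cd70 (chr17:57145997-57149777), the ligand of CD27, was almost absent at the start: 2 and 8 UMIs in 4871 and 7392 Ccr7-0 cDC1, or 0.044 and 0.13 CPM. It stood at 4.89 and 9.33 CPM in intermediate and 34.8 and 65.2 CPM in late cDC1. The stages did not overlap, and library 2 was the higher at each. The steps were 6.18 ± 0.64 (adjusted p = 2.5e-08) and 2.92 ± 0.43 (adjusted p = 7.4e-06), and the size of the first rests on those 10 starting UMIs: the whole change was 9.10 in the fit but 7.10 and 7.55 in single libraries with a prior count of 2. In CPM, 14.0% and 14.1% of the rise was reached at the intermediate stage. Cd70 and Tnfsf9 are adjacent genes, 38239 bp apart on chromosome 17, with Tnfsf14 on the other side of Cd70.

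Tnfsf4 (chr1:161395438-161418206), encoding OX40L, had 1 and 2 UMIs in Ccr7-0, 0 and 2 in intermediate and 3 and 0 in late cDC1. A change was not detectable at this depth.

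Among the TNF receptors usually studied on T cells, Tnfrsf4 (chr4:156013595-156016613), encoding OX40, gained most of its CPM in the second step. Its level was 1.0 and 1.70 CPM in Ccr7-0, 23.2 and 29.4 CPM in intermediate and 534 and 398 CPM in late cDC1. The stages did not overlap in either step. The steps were 4.31 ± 0.36 (adjusted p = 6.5e-10) and 4.23 ± 0.24 (adjusted p = 7.8e-13), and 4.17% and 6.98% of the CPM rise was reached at the intermediate stage. Late cDC1 stood above T cells as a whole, which had 175 and 95.4 CPM. T cells with Foxp3 or Ikzf2 RNA, markers of regulatory T cells, had 787 and 421 CPM. Summed regulatory T markers in late cDC1 were 13.9 and 15.1 CPM, with 1 of 4 at 0, and 14.1 and 11.7 CPM in Ccr7-0 cDC1.

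Tnfrsf9 (chr4:150920155-150946104), encoding 4-1BB, was at 0.35 and 0.71 CPM, then 6.12 and 2.80 CPM, then 19.5 and 23.3 CPM. The stages did not overlap, although the intermediate values rest on 10 and 6 UMIs. The steps were 2.97 ± 0.69 (adjusted p = 0.0021) and 2.47 ± 0.59 (adjusted p = 0.0022). The first step was 3.50 in library 1 alone and 1.69 in library 2 alone. NK cells had 169.6 and 81.5 CPM and T cells 56.2 and 46.8 CPM.

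Slamf1 (chr1:171767131-171801184) had 9 and 6 UMIs in Ccr7-0, 3 and 0 in intermediate and 2 and 4 in late cDC1. The whole change passed the test at 4.83 ± 1.10 (adjusted p = 0.00083), on 6 late UMIs, with 2.98 in library 1 alone and 3.93 in library 2 alone, and neither step passed. T cells had 16.6 and 16.8 CPM, against 2.78 and 4.66 CPM in late cDC1.

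In the first step 8 of 9 members rose, against 13.8% of all genes that rose and 8.94% that fell. In the second step 6 rose and 1 fell, against 16.4% and 16.2% of all genes. The second step was smaller than the first on the log2 scale for 5 members (7.49% of all genes) and larger for 0 (3.71%): Cd80 (-2.0), Cd40 (-1.66), Tnfsf9 (-1.65), Cd86 (-1.15) and Cd70 (-3.25). The values of the other 4 were also below 0, between -0.08 and -0.50. In library 1 and library 2 alone these were -2.56 and -0.71 for Cd40, -2.56 and -0.79 for Tnfsf9 and -1.27 and -1.77 for Cd70. This comparison turns on where the intermediate stage ends: with it narrowed to 2 to 4 Ccr7 UMIs and no Fscn1 UMI, none of the 5 passed as lower, and the second step was the larger for Cd40 (1.18, adjusted p = 0.044), Icosl (2.07, adjusted p = 0.0019) and Tnfrsf4 (4.33, adjusted p = 0.004). In that setting the first steps of Tnfrsf4 (2.11, adjusted p = 0.14), Tnfrsf9 (1.67, adjusted p = 0.58) and Cd86 no longer passed, nor did the second step of Cd86 (-0.25, adjusted p = 0.17), and Cd80 rose in the second step (0.72, adjusted p = 0.049).

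**Figure D2:**
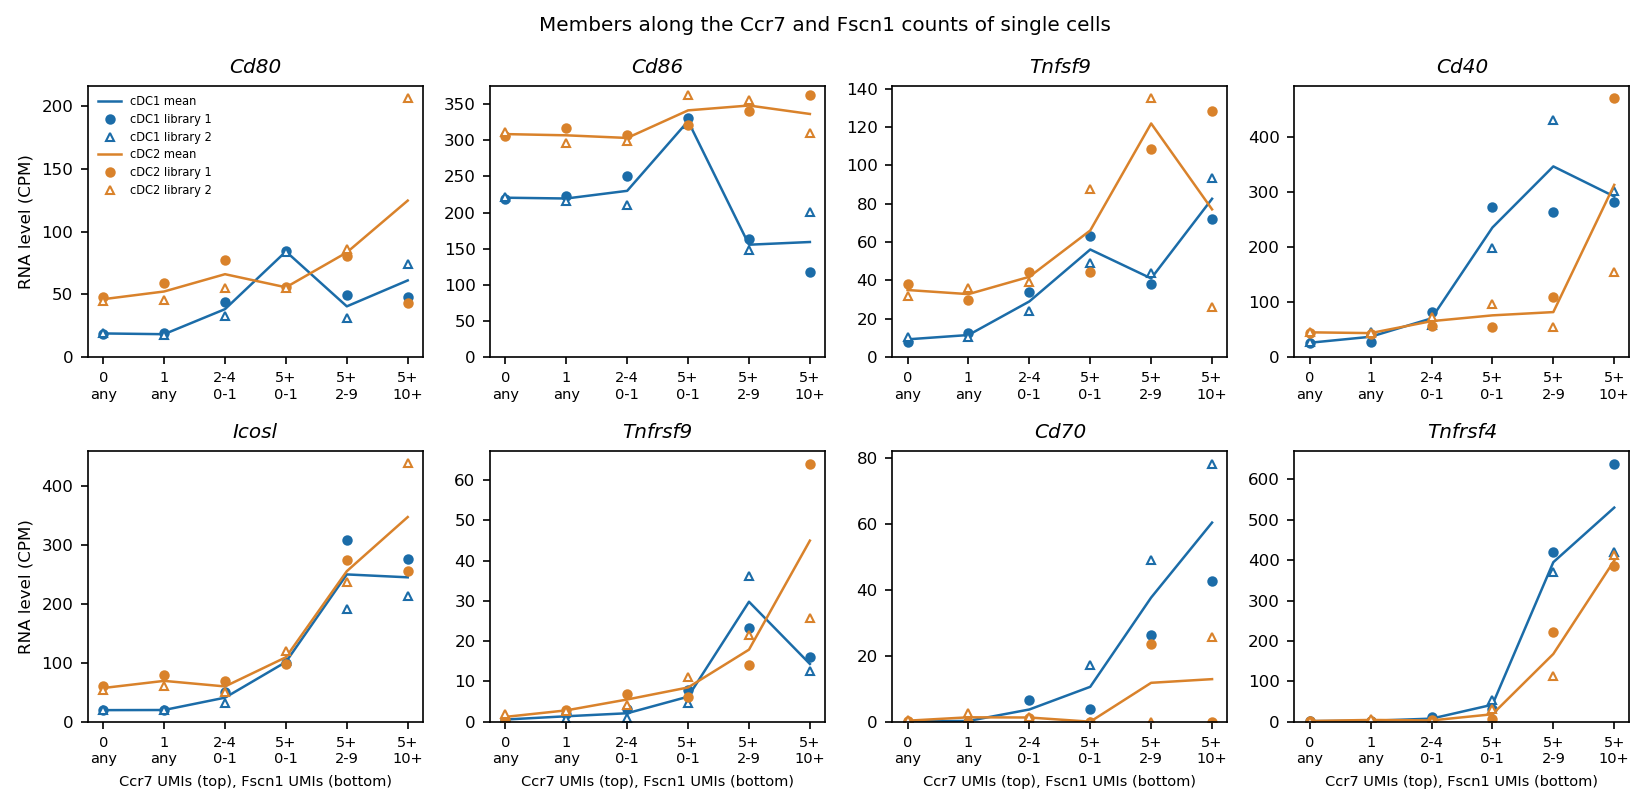
RNA level (CPM, from 0) of 8 members in 6 finer steps of Ccr7 and Fscn1 UMIs, for cDC1 (blue) and cDC2 (orange); filled circles are library 1, open triangles library 2 and lines their mean. Cd80 and Cd86 peak in cDC1 with 5 or more Ccr7 and 0 to 1 Fscn1 UMIs, while Tnfrsf4 and Icosl rise with Fscn1; the last cDC2 points have few cells.

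Finer steps are given as a description. At 1 Ccr7 UMI cDC1 had 27.1 and 45.9 CPM of Cd40, above the Ccr7-0 value mainly in library 2, and 12.3 and 10.5 CPM of Tnfsf9, above it mainly in library 1. The same cells had 18.8 and 17.3 CPM of Cd80, 222 and 217 CPM of Cd86 and 20.1 and 19.6 CPM of Icosl, near the Ccr7-0 values above. At 2 to 4 Ccr7 UMIs with at most 1 Fscn1 UMI, Cd40 was at 82.2 and 57.6 CPM, Cd80 at 43.5 and 32.6 CPM and Icosl at 50.0 and 31.7 CPM. At 5 or more Ccr7 UMIs with at most 1 Fscn1 UMI, Cd40 stood at 273 and 197 CPM, Cd80 at 84.7 and 83.5 CPM and Cd86 at 331 and 322 CPM. Cd40, Cd80 and Cd86 were thus already high in cells rich in Ccr7 with little Fscn1. Tnfrsf4 was at 30.5 and 53.6 CPM in those cells and at 420 and 370.1 CPM once 2 to 9 Fscn1 UMIs were present. Icosl went from 99.5 and 103 CPM to 309 and 192 CPM over the same boundary, and Cd86 from 331 and 322 CPM to 163 and 148 CPM.

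The shares of cells with a UMI were compared after every cell was thinned to 3000 RNA UMIs, which left out shallower cells and kept 4611 and 6938, 166 and 215, and 100 and 113 cDC1 of the 3 stages. Cd40 was found in 6.20% and 7.06% of Ccr7-0 cDC1, 38.0% and 28.8% of intermediate and 52.0% and 48.7% of late cDC1. Cd86 went from 46.8% and 46.8% to 56.0% and 56.7% and then to 30.0% and 29.2%. Tnfrsf4 went from 0.30% and 0.43% to 4.22% and 5.58% and then to 60.0% (exact 95% interval 49.7 to 69.7) and 56.6% (47.0 to 65.9). T cells, for comparison, had a Cd40 UMI in 0.47% and 1.57% of cells, and NK cells had a Tnfrsf4 UMI in 0 of 67 cells, which allows a share of cells with a UMI of up to 4.48% (3 counts of the total), and in 1.10% of 91. Cells with UMIs of at least 3 of the 10 members made up 0.89% and 1.25% of Ccr7-0, 16.3% and 14.4% of intermediate and 50.0% and 36.3% of late cDC1. Unthinned medians were 9202 and 8120 UMIs in Ccr7-0 and 6514 and 6199 in late cDC1.

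**Figure D3:**
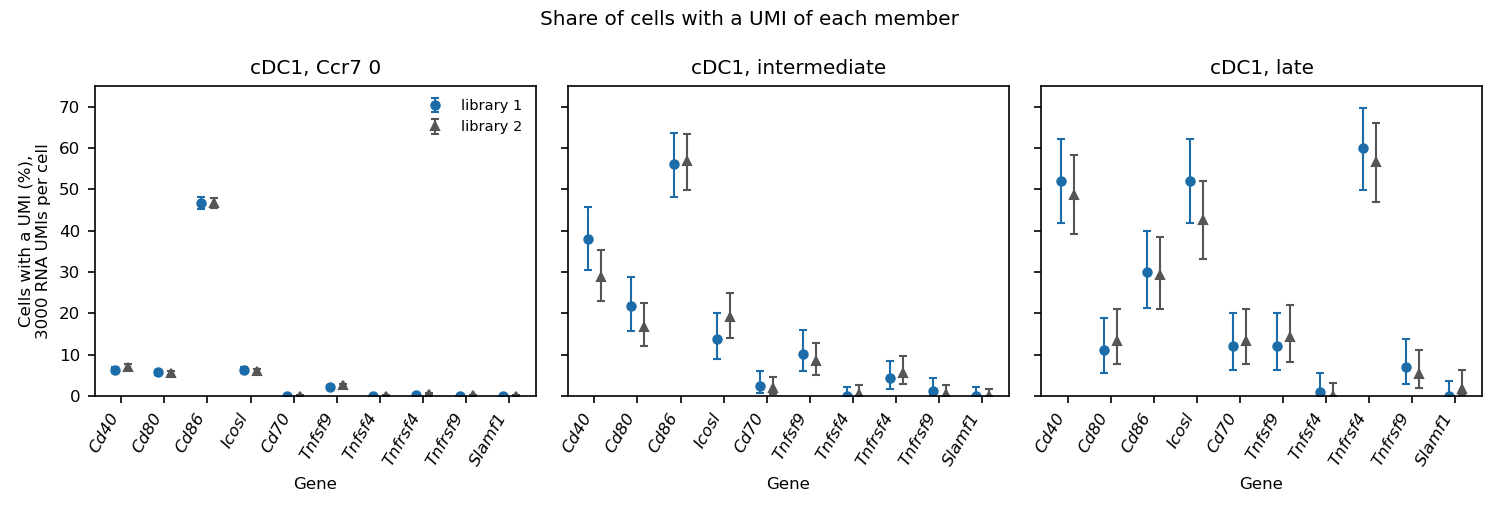
Share of cDC1 with at least 1 UMI of each member after thinning to 3000 RNA UMIs per cell (per cent, linear axis), by stage; circles are library 1, triangles library 2, and bars are exact binomial 95% intervals that cover counting error only. Tnfrsf4 is at 60.0% and 56.6% in the late stage, while Cd86 is lower there than in the other 2 stages.

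The lineages were compared next. Staged from thinned cells, late cDC2 were too few (40 and 24) to fit, so the late comparisons were not checked at equal depth. At the Ccr7-0 stage 5 members were lower in cDC1 than in cDC2, against 23.8% of all genes, and 0 were higher, against 26.3%: Tnfsf9 (-1.79 ± 0.15), Icosl (-1.40 ± 0.13), Cd80 (-1.16 ± 0.13), Cd40 (-0.66 ± 0.17) and Cd86 (-0.35 ± 0.09) on the log2 scale. Adjusted p ranged from 2.3e-10 to 0.0026. For Cd40 the levels were 44.0 and 45.1 CPM in cDC2 against 24.3 and 26.9 CPM in cDC1, and the call was lost with DESeq2 (adjusted p = 0.053).

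By the late stage the order had turned for Cd40. Late cDC2 had 174 and 71.5 CPM, late cDC1 273 and 359 CPM, and the lineages did not overlap. The difference was 1.55 ± 0.29 (adjusted p = 0.00041), and it was 0.90 in library 1 and 2.50 in library 2. Tnfrsf4 was also higher in late cDC1, with 251 and 165 CPM in cDC2 (1.37 ± 0.26, adjusted p = 0.00058), and so was Cd70, with 19.3 and 4.47 CPM in cDC2 (2.18 ± 0.65, adjusted p = 0.027). Cd70 rested on 5 and 1 UMIs in late cDC2, the difference was 1.09 in library 1 alone and 3.97 in library 2 alone, and the call was lost in 3 other settings. Cd86 was lower in late cDC1, against 344 and 348 CPM in cDC2 (-0.91 ± 0.15, adjusted p = 0.00014). In all, 3 members were higher and 1 lower, against 6.81% and 5.39% of all genes. Late Icosl was 271 and 273 CPM in cDC2, inside the range of the late cDC1 libraries, with a difference of 0.07 ± 0.19 (adjusted p = 0.88). Erythroid marker RNA was 1427 CPM in late cDC2 of library 1 and 26.8 CPM in library 2, and its part in these values was not tested.

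The log2 change from Ccr7-0 to late itself differed between the lineages for 4 members, against 9.09% of all genes. It was larger in cDC1 for 3, against 6.08%: Cd40 by 2.21 ± 0.33 (adjusted p = 4.4e-05), Icosl by 1.48 ± 0.22 (adjusted p = 4.5e-05) and Tnfsf9 by 1.16 ± 0.32 (adjusted p = 0.022). Both libraries had this direction for each of the 3, and that of Cd40 was 1.61 in library 1 and 3.11 in library 2. It was smaller for 1, Cd86, by -0.56 ± 0.18 (adjusted p = 0.045), where 3.01% of all genes were smaller. In cDC2 Cd86 RNA lay between 306 and 348 CPM at every stage. The difference for Cd86 lost its call in 5 settings and that of Tnfsf9 with doublets kept. In CPM, Cd40 also rose more in cDC1 in both libraries, but Tnfsf9 rose more in cDC2 in both. Tnfsf9 went from 38.3 and 31.5 to 112 and 116 CPM in cDC2, and from 7.88 and 10.4 to 55.7 and 71.0 CPM in cDC1. Icosl started at 59.9 and 54.6 CPM in cDC2, and its CPM rise was the larger in cDC1 in library 1 only.

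Lymphocytes were taken as the mean of the log2 levels of T, B and NK cells, so a class with little of a gene lowers that mean. Against lymphocytes, 7 members were higher in late cDC1, where 26.2% of all genes were higher and 25.9% lower: Cd70 (5.85), Cd40 (5.09), Tnfrsf4 (5.05), Icosl (4.62), Cd80 (4.30), Tnfsf9 (3.63) and Cd86 (2.38), on the log2 scale. For Tnfrsf4, T cells had 175 and 95.4 CPM, B cells 14.7 and 14.3 CPM and NK cells 2.78 and 1.96 CPM. Tnfrsf9 and Slamf1 did not pass, but Tnfrsf9 was at 0 in B cells and Slamf1 at 0 in NK cells, so their values here are not to be read. By level, late cDC1 had less Tnfrsf9 than T and NK cells, with 19.5 and 23.3 CPM. In Ccr7-0 cDC1 5 members were higher than in lymphocytes, against 28.6% of all genes, and Tnfrsf4 (-3.50 ± 0.77) and Cd70 (-3.25 ± 1.19) were lower, against 29.2%. Cd70 there was -1.95 in library 1 alone and -0.57 in library 2 alone, and Tnfsf9, which passed as higher (0.63, adjusted p = 0.046), was 0.26 and 0.91 and lost its call in 8 other settings. Tnfrsf9 and Slamf1 were at 0 in a lymphocyte class and gave no usable value in that comparison. B cells were the lymphocytes with the most Cd40 (72.1 and 60.3 CPM), Cd86 (93.4 and 122 CPM) and Icosl (28.0 and 36.5 CPM). The B gate also held plasma cell marker RNA, at 21843 and 16664 CPM.

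Surface protein could be set beside RNA for CD86, CD80 and CD150, and for ICOS, the partner of ICOSL. These antibodies are recognised by the following 15-base tags, printed because they are the sequences that were counted.
CD86 antibody tag: ctggatttgtgtatc
CD80 antibody tag: gacccggtgtcattt
CD150 antibody tag: caacgcctagaaacc
CD278 (ICOS) antibody tag: cgcgcacccattaaa

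Between the intermediate and late stages, the fall of Cd86 RNA was not seen in the CD86 antibody. Its level per 10000 antibody UMIs was 107 and 103 in Ccr7-0, 214 and 216 in intermediate and 234 and 219 in late cDC1. The later stages did not overlap with the first, and the late stage was above the intermediate one. The first step was 0.87 ± 0.14 (log2; adjusted p = 0.0010), the second 0.21 ± 0.14 (adjusted p = 0.39) and the whole 1.07 ± 0.15 (adjusted p = 3.7e-05), where 41.2% of 170 antibodies passed either way. The first step is to be read against 25.3% of antibodies called either way and the second against 17.6%. The intermediate stage joined cells with 2 to 4 Ccr7 UMIs, at 155 and 167, and cells with 5 or more, at 243 and 259. Past the Fscn1 boundary where the RNA fell, the antibody was lower than in the latter cells in both libraries. It was at 233 and 207 with 2 to 9 Fscn1 UMIs and at 235 and 230 with 10 or more. These finer steps were not tested. The whole change of CD86 lay between 0.98 (library 2 alone) and 1.64 over the other settings, whereas the median of all antibodies moved from -0.44 to 0.10 with isotype controls (antibodies with no target) as the scale. Across cell types the antibody did not rank as the RNA did: T cells stood at 110 and 114, with 23.6 and 21.9 CPM of Cd86 RNA, and Ccr7-0 cDC2 at 57.5 and 62.3, with 306 and 311 CPM. Of the antibodies called in the whole change, 21.4% were higher in the main scaling and 88.0% with isotype scaling.

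CD80 protein was at 75 and 66.5 in Ccr7-0, 73.6 and 71.4 in intermediate and 45.8 and 52.5 in late cDC1, per 10000 antibody UMIs. The late stage was lowest in both libraries, by -0.56 ± 0.15 (adjusted p = 0.0075). That call ended with isotype scaling (-0.04, adjusted p = 0.96) and without lymphocyte-marker cells (-0.07, adjusted p = 0.86), so no fall of CD80 protein can be stated. The first step, -0.13 ± 0.15 (adjusted p = 0.53), was above 0 in 5 other settings, up to 0.47 with isotype scaling, and per cell the antibody had 8.87 and 7.03 UMIs in Ccr7-0 and 11.2 and 9.67 in intermediate cDC1. Neither a rise nor its absence can therefore be stated for CD80 protein.

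CD150 was 3.54 and 3.68 in Ccr7-0, 8.13 and 7.0 in intermediate and 2.65 and 8.39 in late cDC1, and none of its steps passed. It was 80.1 and 59.3 on T cells. The antibodies CD137 and 4_1BB (as named in the files), CD134 (OX40), CD28, one to CD27 and CD152 were at or below 2.20 in every cDC1 and cDC2 class except CD152 at 2.65 in library 2 of Ccr7-0 cDC2. The isotype control with the highest mean in a class was at 4.71, from 2.67 and 6.75 in Ccr7-0 cDC1, and without that control the highest mean was 3.08. On T cells, which hold Tnfrsf4 RNA, the CD134 antibody was also only at 0.73 and 0.87, so surface OX40 was not detectable with it in either cell type. CD137 reached 4.65 and 4.62 on NK cells.

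The partner ICOS moved on the DC itself. Icos RNA was 3.35 and 5.10 CPM in Ccr7-0, 20.8 and 33.6 CPM in intermediate and 103 and 101 CPM in late cDC1, a change of 4.78 ± 0.25 (adjusted p = 8.3e-15). Its antibody stood at 8.87 and 11.4, 16.3 and 18.6, and 51.3 and 69.9 per 10000, a change of 2.53 ± 0.20 (adjusted p = 4.7e-07). RNA and antibody rose over both steps without overlap. In late cDC2 Icos RNA was 11.6 and 35.7 CPM and the antibody 36.6 and 38.4, lower than in late cDC1 by the antibody (0.87 ± 0.20, adjusted p = 0.0034), where 27.6% of antibodies differed. T cells had 218 and 198 CPM of Icos RNA, and the 7 T markers in late cDC1 are given above. Cd28 RNA, another T cell gene, was 0.67 and 0.40 CPM in Ccr7-0 and 6.12 and 13.1 CPM in intermediate cDC1. It was 2.78 and 2.33 CPM in late cDC1, against 280 and 257 CPM in T cells. Its first step passed (4.31 ± 0.43, adjusted p = 1.8e-08) and its whole change did not (2.47 ± 1.06, adjusted p = 0.056). Cd27, also a T cell gene, was called higher in late cDC1 and is given below. The part of T cell RNA in the Icos values was not tested.

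**Figure D4:**
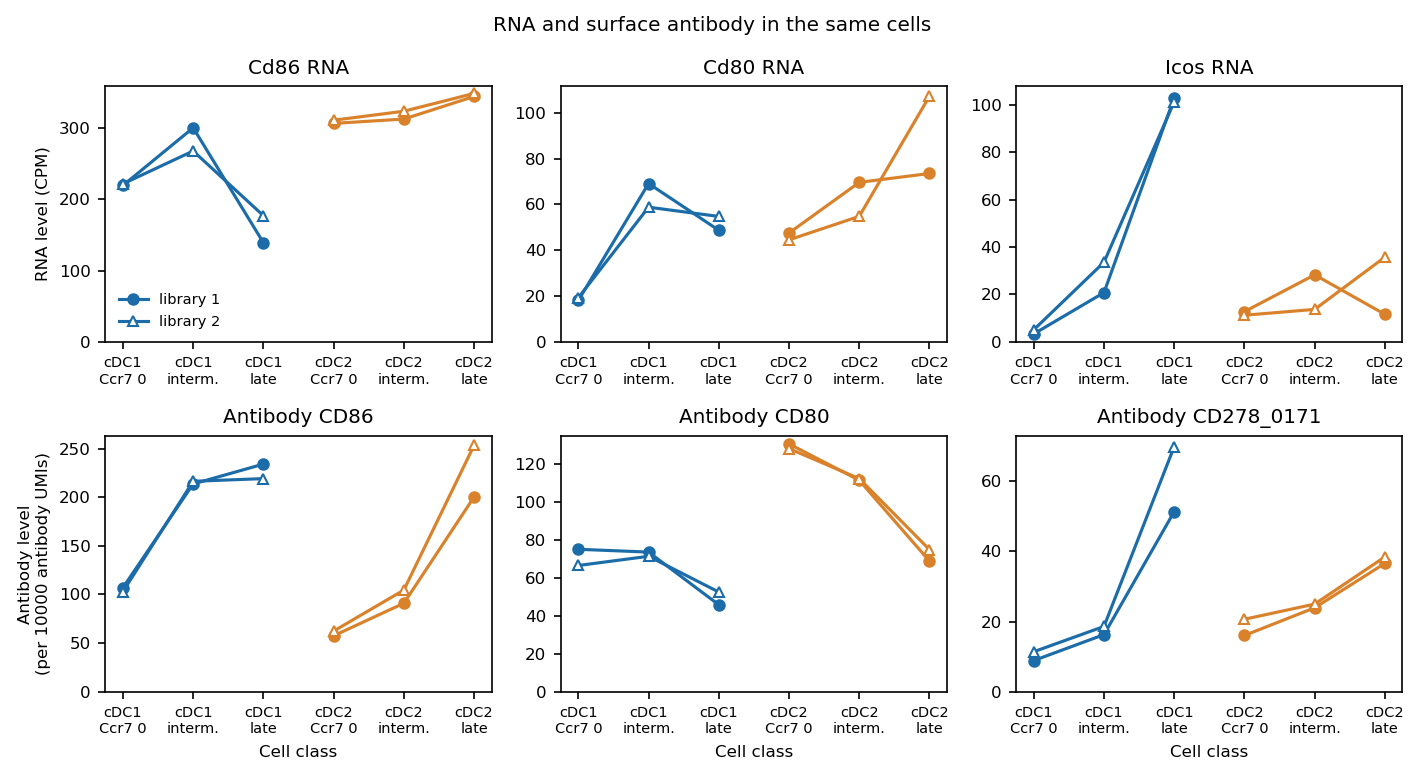
RNA (CPM, top) and surface antibody (per 10000 antibody UMIs, bottom) of CD86, CD80 and ICOS in the stages of cDC1 (blue) and cDC2 (orange), with 1 line per library (filled circles library 1, open triangles library 2). Cd86 RNA is lowest in late cDC1 while its antibody is at 234 and 219, and both ICOS readouts are highest in late cDC1.

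The genes around the members were read from lists of their families and pathway. All 13 of 13 CD40 signalling genes were higher in late than in Ccr7-0 cDC1 (median 2.85, against -0.14 for all genes), where 23.8% of all genes were. In the first step 12 rose, against 13.8% of all genes, and in the second 12, against 16.4%. Relb, the non-canonical NF-kB subunit, went from 28.5 and 33.3 CPM over 274 and 276 CPM to 772 and 631 CPM. Traf1, an adaptor of TNF receptors, changed by 4.34 ± 0.10 and Birc2, a ubiquitin ligase that limits non-canonical NF-kB, by 4.17 ± 0.12.

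The other lists are read against the 23.8% of all genes that were higher and the 25.4% that were lower over the whole path. The list of other B7-like genes, which also held the receptor Btla, gave 2 higher and 1 lower of 4 tested, and the lower one was Btla. Cd274, encoding PD-L1, rose by 4.53 ± 0.21, with 3.73 of it in the first step, and Pdcd1lg2, encoding PD-L2, by 4.27 ± 0.58, while Btla, an inhibitory receptor, fell by 1.27 on the log2 scale. Of 10 other TNF ligands tested 4 rose, among them Lta (6.31 ± 0.63), Tnfsf15 (3.49 ± 0.77) and Ltb (2.57 ± 0.19). In late cDC1 Tnfsf15 was only at 5.57 and 4.66 CPM and Pdcd1lg2 at 9.74 and 9.32 CPM, where 3 UMIs equal 4.17 and 3.49 CPM. Of 14 other TNF receptors 6 rose and 3 fell, the latter near the share of all genes. Fas, the death receptor, rose by 4.48 ± 0.25 and Tnfrsf11a, encoding RANK, by 3.52 ± 0.21, with second steps of 2.81 ± 0.30 and 2.39 ± 0.25 after first steps of 1.67 ± 0.32 and 1.13 ± 0.24. Tnfrsf13b had no UMI in late cDC1. Of 8 SLAM-family genes 1 rose and 3 fell, counts too small to set the list apart from all genes. Those that fell were Cd244a (-2.30 ± 0.41), Slamf8 (-2.11 ± 0.19) and Cd48 (-1.36 ± 0.19).

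Of 5 T cell partner genes tested, 4 rose in the first step (13.8% of all genes), where T marker RNA was also higher, and 2 were higher (23.8%) and 1 lower (25.4%) over the whole path. Besides Icos these were Cd27 (1.67 ± 0.54, adjusted p = 0.013) and Ctla4 (-1.39 ± 0.55, adjusted p = 0.038). The part of the T marker RNA in these values was not tested. Without lymphocyte-marker cells Cd27 had an adjusted p of 0.099 and Ctla4 of 0.087, and Cd27 was 2.24 in library 1 alone and 0.69 in library 2 alone.

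The genes whose log2(CPM + 10) profile over the 18 class sums was most like each member were, as a description, H2-Eb1 (r = 0.99) and H2-Aa for Cd86, Ftl1 (0.97) and Basp1 for Cd40, Grb2 (0.97) for Cd80, Marcksl1 (0.98) and Mcl1 for Icosl, Il27 (0.95) and Arc for Cd70, Fam49a (0.97) and Cyba for Tnfsf9, Pdlim4 (0.94) and Fas for Tnfrsf4, and Tnfaip3 (0.93) and Ifnar1 for Tnfrsf9. The sums share 2 libraries and 9 cell classes, so the points are not independent. Tnfsf4 and Slamf1 were too low for such a comparison to be read.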

How the data were processed

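The authors deposited 1 matrix of raw UMI counts for genes and antibodies, covering both libraries; its header names Cell Ranger 3.1.0 (per the file headers). The submitters' processing notes list STAR, Seurat 3.1.4 and mm10. Labels pair no barcode suffix with a replicate number.

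Cells with under 500 genes, under 1000 RNA UMIs or 10% or more mitochondrial UMIs were left out. Scrublet in scanpy 1.11.5 called 4.30% and 6.24% of cells doublets (546 and 1064), also left out. This kept 12166 and 15976 of 13822 and 17968 barcodes. The libraries held 99617992 and 129565040 RNA UMIs, and 13667427 and 17153368 antibody UMIs.

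UMIs were added up by class in each library. edgeR 4.0.16 under R 4.3.3 (quasi-likelihood test, TMM, filterByExpr) was fitted to all 9 classes at once, 18 sums in all, with library as a block because every class of a library shares its cells' source. Tests were two-sided, and p-values were adjusted by Benjamini-Hochberg (0.05) over 10115 genes or over the 170 antibodies with 100 or more UMIs. The 2 libraries were not duplicates (chi-square per degree of freedom 1.72 to 12.3 by class). The code was tested on simulated data. Intervals and floors (3 counts) cover counting error only. Values of 1 library alone are log2 CPM differences with a prior count of 2.

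Alternatives were RLE and total-UMI scaling, no filter, DESeq2 1.42.0, no block, other gates, stages and cell filters, doublets kept, isotype scaling and each library alone. Members and lists were chosen with earlier results of these data known. Named genes are all 10 members, antibodies to them and partners, up to 3 of the strongest called changes per list, and the 2 nearest genes per member by Pearson's r among 4758 genes reaching 50 CPM (1 of these is not reported here); Cd28 was named after its values were seen. Positions and promoters are RefSeq's for GRCm38.p6 (10 members with a position, 5 with a promoter).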

Additional observations from a re-analysis of the deposited data

Results flagged for a closer look

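Of the 9 testable members, 4 had a change from Ccr7-0 to late that differed between cDC1 and cDC2 by the test of the difference itself (edgeR interaction, adjusted over 10115 genes, of which 9.09% passed). The cDC1 change minus the cDC2 change was 2.21 for Cd40 and 1.48 for Icosl on the log2 scale, with the larger rise on that scale in cDC1 in both libraries. It was 1.16 for Tnfsf9, again in both libraries, although in CPM Tnfsf9 rose more in cDC2. For Cd86 it was -0.56, as its RNA ended below the starting level in cDC1 and above it in cDC2 in both libraries. Late cDC2 were 60 and 56 cells, shallower per cell than late cDC1, with 45 and 16 Cd40 UMIs.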

How the results depend on the processing

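Of the settings, 2 were added after seeing the data: leaving out cells with lymphocyte markers, and a wide gate (XCR1 at least 1 and above CD172a, lymphocyte-marker cells left out). With no replicate block the counts were 2069 (first step), 3184 (second step) and 4864 (whole) genes in place of 2297, 3294 and 4977, and among members' calls only the Cd86 lineage difference was lost (-0.57, adjusted p = 0.062).

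Counts that moved were these. With the intermediate stage narrowed to 2 to 4 Ccr7 and no Fscn1 UMI, 499 genes passed the first step and 1711 the second-minus-first comparison (in place of 1133). Stages from thinned cells gave 2041 genes in the second step. The lineage difference of changes had 595 genes with doublets kept and 1381 in the wide gate, in place of 919. Antibodies passing the first step were 17 with the stricter gate, 9 without lymphocyte-marker cells and 11 in the wide gate, in place of 43. The second step had 19 antibodies with isotype scaling and 18 without lymphocyte-marker cells, in place of 30, and the whole change 25 and 45, in place of 70.

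Directions turned in the narrowed stage for the first step of Cd86 (-0.00085), the second step of Cd80 (0.72) and the second-minus-first values of Cd40 (1.18), Tnfsf9 (0.052), Tnfrsf4 (4.33), Tnfrsf9 (2.10), Icosl (2.07) and Slamf1 (0.83). Uncalled second-minus-first values also turned for Tnfrsf4 with the stricter cell filter (0.22), Tnfrsf9 with doublets kept (0.024), and Icosl (0.051) and Slamf1 (1.48) without lymphocyte-marker cells. Uncalled lineage values turned for Tnfrsf4 at Ccr7-0 with doublets kept (0.040), for late Tnfrsf9 with total UMIs (-0.060), doublets kept (-0.22) and no lymphocyte-marker cells (-0.078), and for late Icosl with total UMIs (-0.14) and doublets kept (-0.39). The Slamf1 difference of changes turned to 5.26 and 6.41 in the 2 added settings, where it could not be fitted with a usable error. Surface CD80 turned in the first step with total UMIs (0.033), the stricter gate (0.073), isotype scaling (0.47), no lymphocyte-marker cells (0.31) and the wide gate (0.34). CD150 turned in the second step in the added settings (0.70 and 0.93) and between late lineages with isotype scaling (0.37) and the wide gate (0.042). Except where a narrower stage or fewer cells were the setting, the cause was not tested.

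With total-UMI scaling the median of all genes from Ccr7-0 to late moved from -0.14 to -0.35, and the share of calls that were higher from 48.4% to 37.6% (first step, 60.6% to 48.5%). The values of each library alone are in the report where they differ; a library alone gives no test. Late cDC1 (37 and 49 cells in the stricter gate) and late cDC2 (54 and 47 with the stricter cell filter, 40 and 24 in thinned stages) fell under 50 cells in a library there and gave no value. Low UMI counts limit Tnfsf4, Slamf1, Tnfrsf9 and the starting level of Cd70. They also limit list genes such as Tnfsf15 and Pdcd1lg2.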

Other observations

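A wider surface gate (XCR1 at least 1 and above CD172a, lymphocyte-marker cells left out, chosen after seeing the data) held 175 and 210 late cells. In them Tnfrsf4 was at 683 and 563 CPM, Cd70 at 50.9 and 81.6 CPM, Cd40 at 287 and 376 CPM and Cd86 at 131 and 155 CPM. Slamf1 had 3 and 14 UMIs there, and its second step passed the test (2.99, adjusted p = 0.011).

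Within T cells, Tnfrsf9 was at 164 and 142 CPM in cells with Foxp3 or Ikzf2, 28.9 and 22.6 CPM in CD8 cells and 47.4 and 52.6 CPM in the others. Slamf1 was at 39.3 and 32.4 CPM, 6.62 and 13.1 CPM, and 24.4 and 17.0 CPM in the same subsets. Tnfrsf4 in CD8 cells was 12.6 and 15.3 CPM.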
